A study of Mus musculus with 51 samples.

Results

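The translation initiation factors of mouse embryos and of 2C-like mouse embryonic stem cells (mESC) are described here with and without LoNA, a nucleolar long noncoding RNA. The members are all protein-coding genes whose symbols begin with Eif followed by a digit from 1 to 6. Eif2s3x and Eif2s3y, the X- and Y-linked copies of the gamma subunit of eIF2, were left out. The rule found 53 members among 37525 genes of the RNA tables, of which 20021 were protein coding. The mESC table listed all 53, the 24h table listed 50 of them, and each earlier table listed 52. Another 6 Eif pseudogenes carried other biotypes and were not members. RNA came from LoNA KO and control 2-cell embryos of the C57BL/6 strain at 18h, 20h, 22h and 24h, and from LoNA KD and control 2C-like mESC labelled with the same strain. Chromatin came from 24h embryos: LoNA KO and control for H3K27me3, H3K4me3 and acetylated nucleophosmin (AcNPM1), and for AcNPM1 also LoNA KO given a p300 inhibitor. The labels used here do not give how LoNA was removed, how many embryos entered a library or from what moment the hours count.

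Initiation brings the small ribosomal subunit, the initiator tRNA and the mRNA together at a start codon. eIF4E binds the mRNA cap, eIF4G is the scaffold and eIF4A the helicase of the cap-binding complex, eIF3 bridges that complex to the small subunit, and eIF2 carries the initiator tRNA, with eIF2B recharging it with GTP. Kinases that phosphorylate the alpha subunit of eIF2 slow initiation as a whole while favouring Atf4, and the 4E-binding proteins hold eIF4E away from eIF4G when mTOR is off. Oocytes and early embryos translate stored maternal mRNA, and Eif4e1b is a form of eIF4E known from the germ line.

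The libraries had 12077497 to 18286944 counts, with the embryos at 18h, 20h and 22h at 3 libraries a group. At 24h the 4 columns a group formed 2 pairs correlated above 0.99, which were summed to 2 libraries. The mESC table had 2 columns a group, correlated at 0.998, and by the same limit each mESC group would be 1 library with no test. The mESC columns were fitted as separate libraries all the same. The share of mitochondrially encoded RNA was 12.9% to 19.3% at 24h and 1.48% to 9.84% in the other tables. The labelled cell types were checked by marker sums, in CPM (counts scaled to library size, normalised by TMM): 10 oocyte and early embryo genes summed to 9235 to 35336 CPM at 18h to 22h and to 36.3 to 64.5 CPM in mESC. The 9 two-cell genes, however, summed to only 4.61 to 10.8 CPM in the 2C-like mESC, against 74.2 to 1626 CPM in embryos at 18h to 22h. In bulk libraries such as these, fewer cells of a type and less RNA per cell cannot be told apart.

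Promoters are shown for 5 members that passed a test given further on and have a RefSeq sequence (build GRCm38.p6, the same assembly as mm10). They were chosen after their values were seen and are not a ranking by size of change. Eif4g3 and Eif1 rose in LoNA KD mESC, Eif4a2 and Eif4a1 fell there, and Eif3m rose between 18h and 22h in embryos. The 250 bases before a RefSeq start are printed 5′ to 3′ on the gene's strand. RefSeq lists 2 starts for Eif4g3, and the one of lower coordinate is shown. These starts can differ from the gene starts used for the peaks. The Eif4g3 window lies wholly after its gene start at 137993022, and those of Eif1, Eif4a2 and Eif3m run past theirs. Capitals mark matches on either strand to any of the 6 motifs spelled out after the sequences.
Eif4g3, chr4:137993205-137993454 (plus strand): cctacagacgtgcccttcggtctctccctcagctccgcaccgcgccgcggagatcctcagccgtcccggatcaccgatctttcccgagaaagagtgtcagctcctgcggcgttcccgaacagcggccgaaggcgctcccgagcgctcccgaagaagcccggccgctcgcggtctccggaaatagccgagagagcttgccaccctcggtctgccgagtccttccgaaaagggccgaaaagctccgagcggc
Eif1, chr11:100319699-100319948 (plus strand): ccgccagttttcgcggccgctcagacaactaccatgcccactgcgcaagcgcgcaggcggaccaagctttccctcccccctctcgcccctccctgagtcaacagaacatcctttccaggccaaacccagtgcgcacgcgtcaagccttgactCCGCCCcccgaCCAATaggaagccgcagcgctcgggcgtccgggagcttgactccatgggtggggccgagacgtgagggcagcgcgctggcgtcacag
Eif4a2, chr16:23107218-23107467 (plus strand): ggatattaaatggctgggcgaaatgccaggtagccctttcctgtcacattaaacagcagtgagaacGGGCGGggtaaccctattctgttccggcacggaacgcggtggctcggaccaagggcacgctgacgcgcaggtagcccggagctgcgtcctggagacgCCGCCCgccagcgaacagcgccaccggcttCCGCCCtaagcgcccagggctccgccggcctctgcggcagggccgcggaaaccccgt
Eif4a1, chr11:69672424-69672673 (minus strand): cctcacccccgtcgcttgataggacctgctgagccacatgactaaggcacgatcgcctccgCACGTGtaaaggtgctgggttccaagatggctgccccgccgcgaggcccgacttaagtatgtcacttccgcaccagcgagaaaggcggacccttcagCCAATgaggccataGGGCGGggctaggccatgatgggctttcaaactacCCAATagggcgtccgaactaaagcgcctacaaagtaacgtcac
Eif3m, chr2:105017028-105017277 (minus strand): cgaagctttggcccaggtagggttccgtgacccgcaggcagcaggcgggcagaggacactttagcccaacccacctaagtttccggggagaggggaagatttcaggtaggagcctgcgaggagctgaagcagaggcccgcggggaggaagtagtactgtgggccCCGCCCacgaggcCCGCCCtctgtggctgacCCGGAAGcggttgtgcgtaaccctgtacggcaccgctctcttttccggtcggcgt
All 250 bases of each lay inside a H3K4me3 promoter peak of the 24h embryos. Eif4g3 held none of the 6 motifs, Eif1 held a GC box and a CCAAT box, and Eif4a2 held GC boxes alone. Eif4a1 held a GC box, CCAAT boxes and an E box, and Eif3m held GC boxes and an ETS motif. Of the 53 members, 41 matched the RefSeq promoter table. GGGCGG, the GC box, stood in 73.2% of these 41 and in 51.4% of 14955 other protein-coding genes. CCGGAAG, bound by ETS factors, stood in 29.3% against 11.3%, and CACGTG, the E box, in 22.0% against 8.28%. CCAAT was in 34.1% against 39.5%, and TATAAA in 7.32% against 11.4%. TGATGNAA, the core of the amino acid response element, was in 0 of 41 members and in 3.03% of the other genes. A gene counted as holding a motif if the window before any of its RefSeq starts did, with 54 starts for the 41 members. Genes with more starts thus had more chances of a match. No motif overlap was removed, and a match describes letters in these windows only.

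In LoNA KD mESC, 38 of 52 tested members passed the test, 29 higher and 9 lower than in control mESC (edgeR quasi-likelihood test, Benjamini-Hochberg adjusted p under 0.05). Of all 16406 genes tested, 74.2% passed, 38.9% higher and 35.3% lower. The counts by role and by list given below for mESC stand beside these shares. The median log2 change was 0.22 for the members and 0.01 for all genes tested. The 2 columns of a group were nearly alike, with a biological coefficient of variation of 3.39% against 55.5% to 77.5% in the 18h to 22h embryo tables, so these p-values rest on a very small spread. A chi-square of the 2 columns against sampling noise, over genes of at least 10 counts, averaged 2.90 a gene in KD and 1.92 in control mESC, below the 3.07 to 8.94 of the 24h columns that were summed as 1 library. The 2 columns of a group may therefore be repeats of 1 preparation, and every mESC p-value, SE and SD here may be technical only. Marker sums moved between the same groups: 8 pluripotent stem cell genes, all with counts in mESC, summed to 2529 and 2601 CPM in KD against 5175 and 5180 CPM in control mESC. The 6 fibroblast markers summed to 207 to 209 CPM in KD and 489 to 510 CPM in control mESC. The two-cell markers, low in both groups, summed to 4.61 to 5.12 CPM in KD and 9.81 to 10.8 CPM in control mESC. The oocyte and early embryo, cumulus and granulosa, and trophectoderm sums were also lower in KD. The blood and the sperm and testis sums were at most 0.477 CPM. The part of these markers in the members' changes was not tested.

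Among the cap-binding proteins, Eif4e3, an eIF4E paralog, had the largest rise of the tested members. It measured 33.6 and 38.3 CPM in KD mESC, against 5.05 and 4.25 CPM in control mESC, and rose by 2.95 ± 0.12 on the log2 scale (SE, edgeR adjusted p 1.95e-15). Both KD libraries lay far above both control libraries. Eif4e, the general cap-binding factor, measured 231 and 223 CPM in KD and 212 and 211 CPM in control mESC, a log2 change of 0.10 (edgeR adjusted p 0.0266). Eif4e2, a cap-binding paralog linked to repression, did not pass, at 107 and 110 CPM in KD and 101 and 104 CPM in control mESC. Eif4e1b was not tested, with 0.233 and 0.0596 CPM in KD and 0.0574 CPM in each control library, which is at most 4 counts.

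Of the 3 scaffolds, 2 rose and 1 did not pass, and of the 5 helicases and cofactors, 2 rose and 3 fell. Eif4g3, a homolog of Eif4g1, measured 196 and 181 CPM in KD mESC against 64.0 and 58.7 CPM in control mESC, a log2 change of 1.62 ± 0.05 (SE, edgeR adjusted p 6.15e-17). Eif4g2, which supports cap-independent initiation, rose by 0.47, while Eif4g1 itself did not pass, at 852 and 839 CPM in KD and 815 and 795 CPM in control mESC. Eif4a2 fell to 561 and 527 CPM in KD mESC, against 984 and 966 CPM in control mESC, a log2 change of -0.84. Eif4a1, the main helicase, fell to 959 and 971 CPM in KD, against 1402 and 1414 CPM in control mESC, a log2 change of -0.55. Eif4b, a cofactor that stimulates the helicase, fell to 864 and 847 CPM in KD, against 1116 and 1093 CPM in control mESC, a log2 change of -0.37. Eif4h, a related cofactor, and Eif4a3, the exon junction helicase, rose by 0.32 and 0.34. The groups did not overlap for any of these passing members, as was so for 44 of the 52 tested members, 84.6%, beside 86.6% of all genes tested. The pseudogene Eif4a-ps4 was counted at 242 to 417 CPM in mESC, so reads could be shared between it and the Eif4a genes, and their levels are uncertain by that much.

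Of the start codon factors, 5 of 7 rose and 1 fell. Eif1, which guards start codon choice, measured 440 and 448 CPM in KD mESC against 215 and 219 CPM in control mESC, a log2 change of 1.03 ± 0.04 (SE, edgeR adjusted p 4.39e-16). Its paralog Eif1b measured 35.4 and 36.0 CPM in KD and 20.8 and 24.3 CPM in control mESC, a log2 change of 0.66. Eif1ax, the X-linked eIF1A gene, measured 301 and 312 CPM in KD and 193 CPM in each control library, a log2 change of 0.67. Eif1a, the autosomal copy, went the other way, with 182 and 170 CPM in KD and 203 and 188 CPM in control mESC (log2 change -0.15, edgeR adjusted p 0.00612). Eif1a and Eif1ax are close in sequence, so reads could be split between them. Eif5, the GTPase activator of eIF2, did not pass, at 319 and 323 CPM in KD and 307 and 311 CPM in control mESC.

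Of the eIF2 proteins, the alpha subunit Eif2s1 and beta subunit Eif2s2 did not pass, with log2 changes of 0.05 and -0.02. Eif2d, which can deliver tRNA without eIF2, fell to 59.6 and 53.0 CPM in KD, against 91.3 and 96.3 CPM in control mESC, a log2 change of -0.74. Eif2a, named for a similar activity, fell to 136 and 141 CPM in KD, against 168 and 163 CPM in control mESC, a log2 change of -0.26. Neither overlapped between the groups. Of the 5 eIF2B subunits, Eif2b2, the beta subunit, rose to 77.8 and 85.4 CPM in KD, against 42.4 and 46.2 CPM in control mESC, a log2 change of 0.88. Eif2b4, the delta subunit, rose by 0.54, and the other 3 had log2 changes between -0.06 and 0.01. The kinases changed little: Eif2ak1, the haem-regulated kinase, rose by 0.34 and Eif2ak2, the double-stranded RNA sensor PKR, by 0.19. Eif2ak4, the amino acid sensor GCN2, had a log2 change of -0.24, and Eif2ak3, the endoplasmic reticulum kinase PERK, did not pass at 48.9 CPM in each KD library and 48.4 and 47.8 CPM in control mESC.

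The eIF3 subunits rose in 10 of 14 cases, by 0.14 for Eif3c to 0.53 for Eif3d on the log2 scale. Of all genes tested, 38.9% rose. Eif3a, the largest core subunit, was the 1 that fell, to 605 and 611 CPM in KD, against 725 and 702 CPM in control mESC (log2 change -0.23, edgeR adjusted p 9.48e-06). Eif3j1, Eif3k and Eif3m did not pass. Of the inhibitors, Eif4ebp1 rose to 451 and 488 CPM in KD, against 314 and 360 CPM in control mESC, and Eif4ebp2 fell to 311 and 312 CPM in KD, against 407 and 385 CPM in control mESC. Eif6, which keeps the large ribosomal subunit from joining too early and works in its maturation, rose by 0.56, and Eif5a, a factor that relieves stalled ribosomes, by 0.12. Summed over members, KD mESC had 16041 and 16164 CPM and control mESC 15215 and 15234 CPM.

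**Figure D1:**
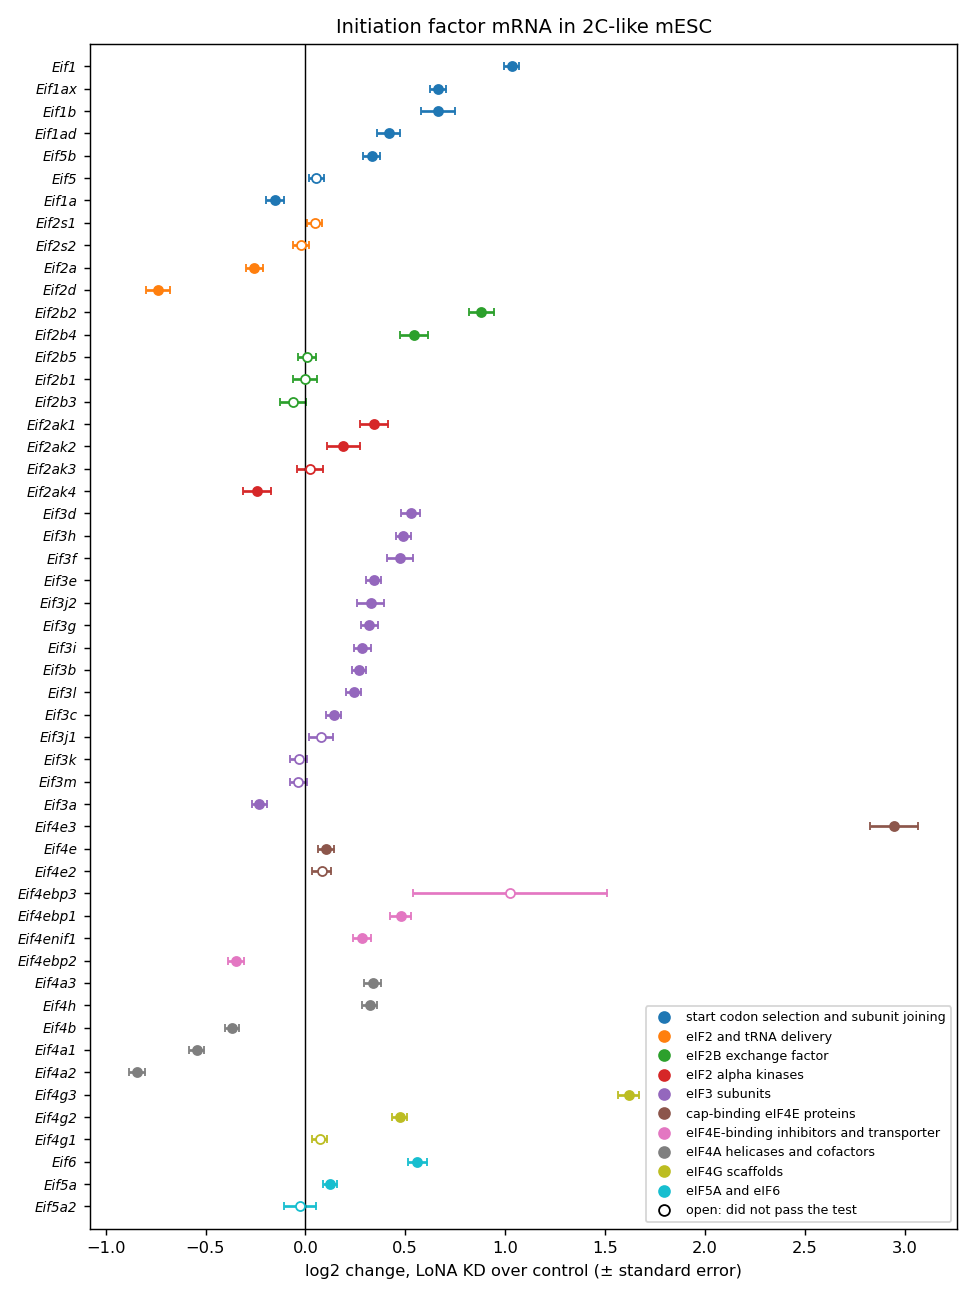
Log2 change (LoNA KD over control mESC, with its standard error, x axis) of the 52 tested members (rows, coloured by role), with open points for members that did not pass. Eif4e3 stands at 2.95 and Eif4g3 at 1.62, and Eif4a2 at -0.84 is the lowest.

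Around initiation, the integrated stress response list had 9 of 12 genes higher and 1 lower in KD mESC, with a median log2 change of 1.37. Of all genes tested, 38.9% were higher and 35.3% lower. Atf4, the transcription factor translated when eIF2 is phosphorylated, averaged 731 ± 27 CPM in KD and 169 ± 1.8 CPM in control mESC (SD, n = 2 each). Chac1, an ATF4 target that degrades glutathione, averaged 101 ± 0.52 CPM in KD and 6.80 ± 0.69 CPM in control mESC. Trib3, Atf5 and Asns, also known ATF4 targets, rose by 2.02, 2.49 and 1.42 on the log2 scale. Ddit4 and Ppp1r15b did not pass, and Sesn2 had a log2 change of -0.13. This list and the others were chosen with earlier results of these data known, so its split describes these libraries and is not separate support. Of 14 mTOR signalling genes 6 rose and 6 fell. Of 8 termination and recycling genes 4 rose and 4 fell, and of 9 elongation genes 3 rose and 3 fell. Of 7 tested poly(A)-binding genes 1 rose and 3 fell, and of 14 tested oocyte translational control genes 5 rose and 6 fell. Eef1a2, a tissue-restricted elongation factor, averaged 278 ± 5.5 CPM in KD and 2.09 ± 0.040 CPM in control mESC. Pabpc1, the main poly(A)-binding protein, averaged 2134 ± 27 CPM in KD and 2839 ± 0.39 CPM in control mESC.

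In the embryos, 0 of 52 members passed between LoNA KO and control at 18h, at 20h or at 22h, and 0 of 39 tested at 24h, with edgeR. The share of all genes that passed was 0.00649% at 18h, 0.0138% at 20h (0.00689% higher and 0.00689% lower), 0.00656% at 22h and 0.0% at 24h. At an unadjusted p under 0.05 there were 3 members at 18h, 0 at 20h, 2 at 22h and 3 at 24h, where 5.14%, 3.66%, 3.15% and 5.16% of all genes were. DESeq2 called 1 member of 52 at 18h, 0 of 52 at 20h and at 22h, and 4 of 50 at 24h, where it called 0.357%, 0.0889%, 0.0209% and 9.58% of all genes it gave a p. The standard error of a member's log2 change had a median of 0.41 at 18h, 0.47 at 20h, 0.29 at 22h and 2.34 at 24h, so a member that did not pass is not shown to be alike in both groups. The members' median log2 changes were 0.05, -0.02 and -0.09 at 18h, 20h and 22h, against -0.02, -0.03 and 0.00 over all genes tested.

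At 18h, Eif1ax had the lowest p of the members. It measured 277, 331 and 187 CPM in KO embryos against 105, 129 and 114 CPM in control embryos. All 3 KO libraries were above all 3 control libraries, with a log2 change of 1.23 ± 0.30 (SE) and an edgeR adjusted p of 0.744, while the DESeq2 adjusted p was 0.0279. At 20h the KO libraries had 394, 304 and 378 CPM and the controls 405, 311 and 317 CPM, and at 22h they had 206, 184 and 114 CPM and the controls 281, 187 and 198 CPM. The groups overlapped at both later times. Over the 3 times, the KO effect on Eif1ax differed with an unadjusted p of 0.00187 and an edgeR adjusted p of 0.783, and 0 members passed this test, as did 0.0% of the 18992 genes. Eif2a measured 20.0, 26.2 and 24.3 CPM in KO embryos at 18h, against 79.7, 49.3 and 41.1 CPM in control embryos, without overlap (log2 change -1.23, edgeR adjusted p 0.744). Groups did not overlap for 5 members at 18h, 4 with KO higher and 1 lower, 9.62% of members beside 12.8% of all genes, of which 5.21% were higher and 7.58% lower. Eif2s2 and Eif4a2 were next, with log2 changes of 0.91 and -0.71 and overlapping groups.

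Eif4e had the lowest p of the members at 20h. It measured 780, 380 and 575 CPM in KO embryos against 484, 1665 and 1173 CPM in control embryos. Control library 1 lay within the KO range, so the groups overlapped, and the log2 change was -0.999 ± 0.46 (SE, edgeR adjusted p 0.998). Without control library 1 it was -1.32 (edgeR adjusted p 0.639) and without control library 2 it was -0.57. The same control library also stood with the KO embryos for Eif1b, at 1826 CPM beside 1641, 1795 and 1853 CPM in KO and 863 and 1060 CPM in the other controls, and for Eif2s1, at 58.9 CPM beside 103, 73.3 and 93.3 CPM in KO and 215 and 208 CPM in the other controls. Over 9597 genes that library correlated at 0.858 and 0.867 with the other controls and at 0.864 to 0.887 with the KO libraries. This was not particular to it. KO library 3 at 20h correlated at 0.861 and 0.897 with the other KO libraries and at 0.861 to 0.909 with the controls. At 18h, Eif4e measured 855, 729 and 1732 CPM in KO embryos and 1667, 1550 and 1609 CPM in control embryos, with KO library 3 at the control level. At 22h it measured 1583, 1514 and 1818 CPM in KO embryos and 1987, 1562 and 1655 CPM in control embryos. Eif3f, Eif4a2 and Eif2s1 followed Eif4e by p at 20h, with log2 changes of -1.18, -0.74 and -0.90. At 20h 2 members had groups without overlap, Eif3f lower and Eif4e2 higher in KO, 3.85% of members beside 9.83% of all genes, 4.68% lower and 5.14% higher.

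At 22h, Eif4e3 measured 196, 148 and 156 CPM in KO embryos, against 111, 94.5 and 97.1 CPM in control embryos. No KO library came down to the control range, and the log2 change was 0.72 ± 0.22 (SE, unadjusted p 0.00898, edgeR adjusted p 0.99996). Leaving out each library in turn gave log2 changes of 0.58 to 0.80, none passing. Eif3m, a subunit of eIF3, measured 42.6, 52.8 and 45.7 CPM in KO embryos against 76.5, 59.6 and 81.7 CPM in control embryos, without overlap (log2 change -0.64). Eif2b4 and Eif4ebp1 followed, with log2 changes of -0.43 and 0.90 and overlapping groups. For Eif4ebp1 the difference rested on KO library 1, at 10.6 CPM beside 3.89 and 3.71 CPM in the other KO and 2.67 to 4.16 CPM in control embryos, and was 0.22 without it. In all, 3 members had groups without overlap, 5.77% beside 9.09% of all genes, 4.83% higher and 4.26% lower.

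**Figure D2:**
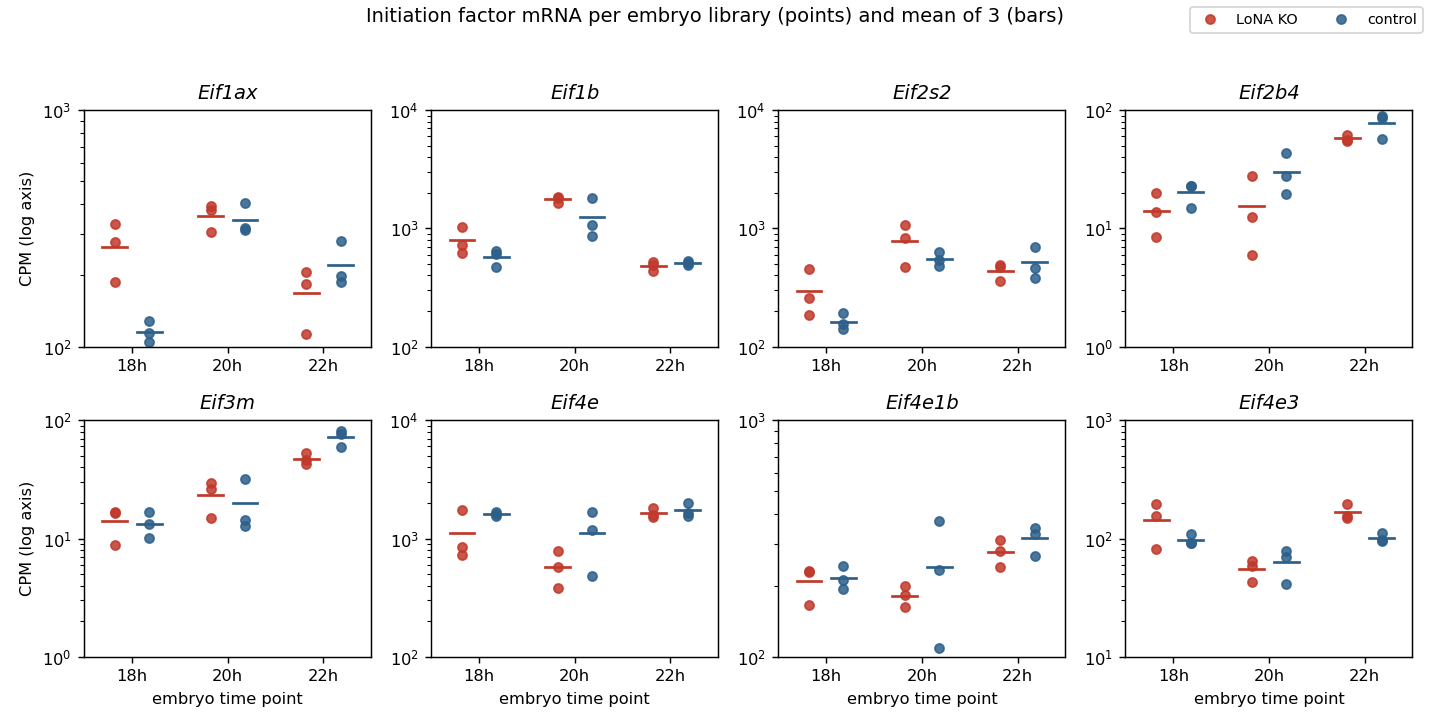
Level in CPM (log axis) of 8 members in each embryo library at 18h, 20h and 22h, with LoNA KO (red) left of control (blue) and bars at the mean of 3 libraries. Eif3m and Eif2b4 stand highest at 22h in both groups, and Eif4e at 20h spreads from 380 to 1665 CPM.

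Other members named by role showed no passing difference at 18h to 22h. Eif4e1b measured 166, 230 and 229 CPM in KO embryos and 194, 241 and 212 CPM in control embryos at 18h. At 20h it measured 182, 200 and 162 CPM in KO and 109, 377 and 232 CPM in control embryos, and at 22h 280, 313 and 238 CPM in KO and 351, 331 and 267 CPM in control embryos. Its groups overlapped at each time. Eif1a measured 22.4, 11.5 and 8.58 CPM in KO embryos at 18h and 5.62, 9.42 and 10.6 CPM in control embryos, and from 0.0 to 7.88 CPM in either group at 20h and 22h. The kinases Eif2ak2 and Eif2ak3 stayed at or below 8.60 CPM in each of these 18 libraries, and Eif2ak1 and Eif2ak4 ran from 23.9 to 84.99 CPM and from 43.5 to 116 CPM. Eif4ebp1 and Eif4ebp2 stayed between 0.987 and 17.5 CPM. Eif5 ran from 112 to 813 CPM, Eif5a from 166 to 745 CPM and Eif6 from 53.2 to 205 CPM, with groups overlapping at each time. Eif4a1 ran from 103 to 382 CPM, Eif4a2 from 60.8 to 426 CPM, Eif4g1 from 12.7 to 85.2 CPM and Eif3a from 8.53 to 71.6 CPM. Summed over members, KO embryos had 6959 to 8038 CPM at 18h, 7386 to 8203 CPM at 20h and 7977 to 9014 CPM at 22h, and control embryos 7161 to 7823, 7346 to 8679 and 8583 to 8944 CPM.

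The 24h libraries resolved fewer members, and single libraries at or near 0 were common. Eif2b3, the gamma subunit of eIF2B, measured 18.8 and 80.6 CPM in KO embryos and had 0 counts in both control libraries (edgeR adjusted p 0.826). Set against a floor of 3 counts over the control group, it was 530-fold higher. That floor covers counting alone, while the biological coefficient of variation at 24h was 158%. By the same floor Eif4g1 was 107-fold and Eif3b 67.3-fold lower in KO embryos, each almost wholly from 1 control library. Eif5a2, an eIF5A paralog, measured 0.141 and 0.0616 CPM in KO and 31.2 and 64.7 CPM in control embryos, and Eif2a 0.0 and 0.0616 CPM in KO and 25.2 and 38.0 CPM in control embryos. In each of the 3 members Eif2b3, Eif5a2 and Eif2a both KO libraries stood on 1 side of both controls, yet the edgeR adjusted p was 0.826. DESeq2 put these 3 past the threshold, with adjusted p of 0.00656, 0.0145 and 0.0184, as well as Eif4g1, which edgeR did not test and which had 22.3 CPM in 1 control library and 0 counts in the other control and both KO libraries. Eif1ad, next by p, measured 0.0 and 0.924 CPM in KO and 0.0619 and 73.4 CPM in control embryos. Eif4e measured 2092 and 1343 CPM in KO and 1749 and 994 CPM in control embryos, and Eif1a 79.0 and 8.44 CPM in KO and 22.6 and 0.138 CPM in control embryos. Neither was without overlap. Groups did not overlap for 9 of 39 tested members, or 23.1%, 4 higher and 5 lower in KO, beside 33.3% of all genes, 16.0% higher and 17.3% lower.

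Between 18h and 22h some members passed the test in each genotype. Other measures moved between the same times: the 8 two-cell markers in these tables, each seen in embryos, summed to 74.2 to 296 CPM at 22h against 417 to 1626 CPM at 18h, and the mitochondrial share was 1.62% to 2.99% at 22h against 2.86% to 9.84% at 18h. The 20h libraries did not lie between by every measure. The 10 oocyte and early embryo genes summed to 18019 to 35336 CPM at 20h, against 10839 to 20422 CPM at 18h and 9235 to 17633 CPM at 22h. The part of these measures in the members' changes was not tested, and time cannot be told apart from the separate tables of the times. In control embryos, 3 of 52 members passed, all higher at 22h, where 1.58% of 18992 genes passed, 1.03% higher and 0.553% lower. In KO embryos 5 passed, 4 higher and 1 lower at 22h, where 4.13% of genes passed, 2.5% higher and 1.63% lower. The difference of these changes between genotypes is part of the test over time above, which no member passed. Eif3m measured 76.5, 59.6 and 81.7 CPM at 22h against 16.6, 10.02 and 13.4 CPM at 18h in control embryos. It rose by 2.45 ± 0.41 on the log2 scale (SE, edgeR adjusted p 0.00538), and in KO embryos by 1.75 (edgeR adjusted p 0.0163), without overlap in either. Eif2b4 measured 85.2, 89.2 and 57.5 CPM at 22h against 15.002, 23.0 and 22.7 CPM at 18h in control embryos, a log2 change of 1.93, and 2.04 in KO embryos (edgeR adjusted p 0.0355 and 0.0162). Eif2s2 measured 467, 385 and 694 CPM at 22h against 155, 141 and 191 CPM at 18h in control embryos, a log2 change of 1.67 (edgeR adjusted p 0.0165). In KO embryos it measured 359, 487 and 469 CPM at 22h and 184, 451 and 257 CPM at 18h, which overlapped, with a log2 change of 0.56.

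In KO embryos Eif1ad, an eIF1A domain protein, and Eif4h also rose, by 2.05 and 1.79, with edgeR adjusted p of 0.0258 and 0.0438. Eif1ad measured 31.7, 50.1 and 57.4 CPM at 22h against 20.4, 8.17 and 5.06 CPM at 18h, and Eif4h 58.3, 28.7 and 14.8 CPM at 22h against 8.71, 11.7 and 9.04 CPM at 18h. Eif3i, a WD-repeat subunit of eIF3, fell to 156, 185 and 206 CPM at 22h, against 368, 409 and 375 CPM at 18h, a log2 change of -1.07 (edgeR adjusted p 0.0196). In control embryos Eif3i measured 162, 179 and 189 CPM at 22h and 289, 352 and 323 CPM at 18h, also without overlap (edgeR adjusted p 0.0942). Of the lists around initiation, 2 of 18 oocyte translational control genes rose in control and 5 of 18 in KO embryos, among them Cpeb1, which steers cytoplasmic polyadenylation, and Zar1l in both. In each genotype 1 of 8 elongation, 1 of 7 termination and recycling and 1 of 10 poly(A)-binding genes also rose, 0 of 14 mTOR signalling and 0 of 11 integrated stress response genes passed, and no gene of these lists fell. These calls depend on single libraries. Each 18h and 22h library of the genotype was left out in turn, and the 20h libraries and the other genotype's were kept. By this 0 to 2 members passed in control and 0 to 5 in KO embryos, with 0 without 18h control library 3 and 0 without 18h KO library 2. In control embryos Eif3m passed in 5 of the 6 fits, Eif2s2 in 1 and Eif2b4 in 0. In KO embryos Eif2b4 and Eif3m passed in 3 of 6 fits, Eif1ad and Eif3i in 2 and Eif4h in 1. DESeq2 called 6 members in control and 10 in KO embryos, where it called 4.45% and 8.02% of all genes. With RLE size factors in place of TMM, 45.1% of the genes called in KO embryos were higher rather than 60.6%, the members' log2 changes were lower by a median of 0.13, and Eif4h no longer passed (edgeR adjusted p 0.0601).

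**Figure D3:**
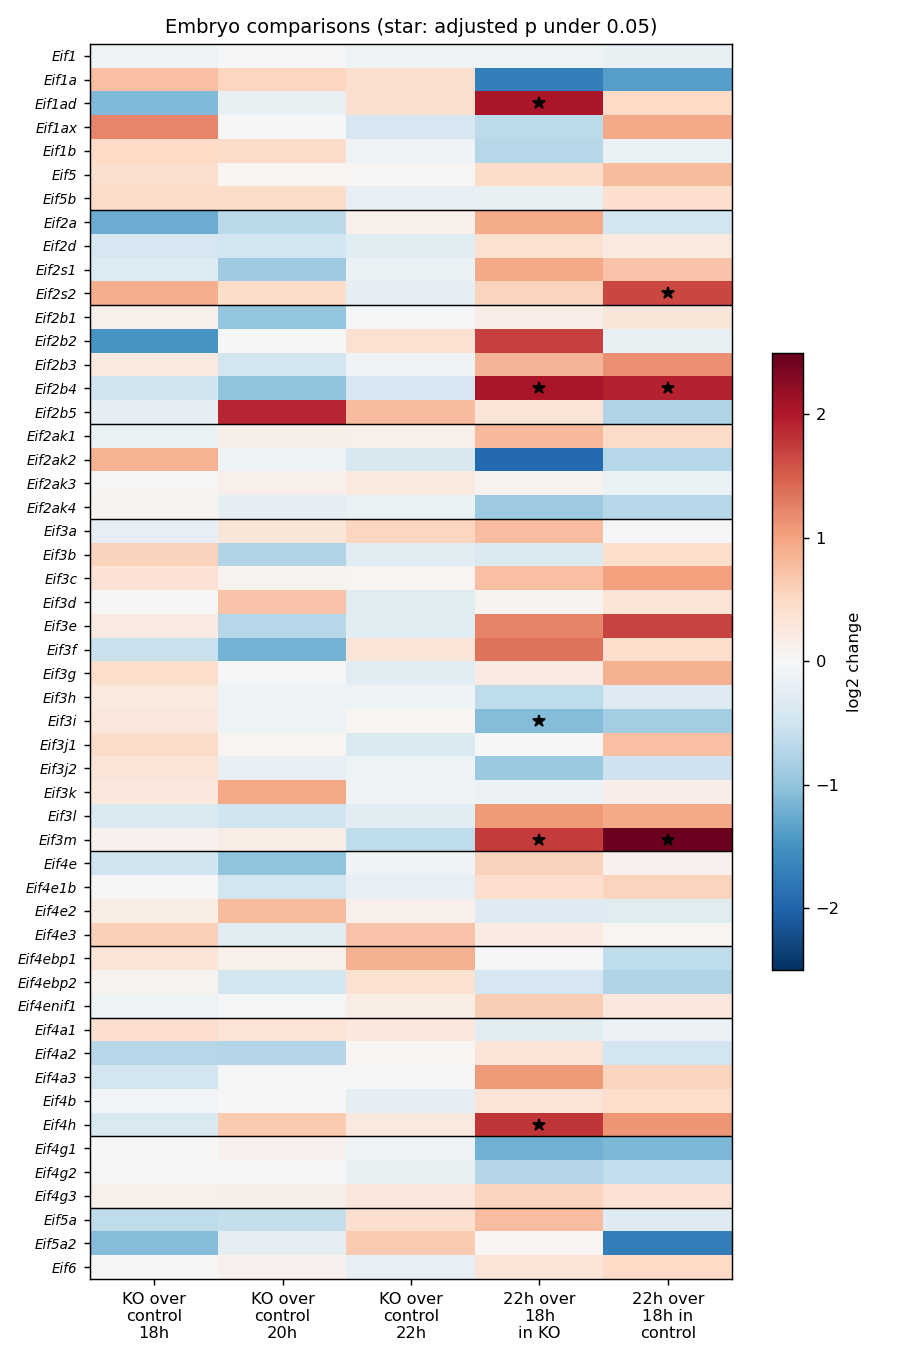
Log2 change (colour) of the 52 members of the embryo tables, grouped by role in rows, for LoNA KO over control at 18h, 20h and 22h and for 22h over 18h in KO and in control embryos (columns). Stars mark the 5 members that passed between 18h and 22h in KO and the 3 in control embryos, and no genotype column has a star.

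Embryos and 2C-like mESC differed in the CPM levels of many factors, though the tables were scaled separately and no test was made. The 18 embryo libraries held both KO and control, and the 4 mESC libraries both KD and control. Of 52 members, 6 were higher in all 18 embryo libraries of 18h to 22h than in all 4 mESC libraries and 31 were lower, where 15.3% and 34.5% of 17837 genes were. Eif4e1b had 109 CPM at the lowest, a median of 231 and 377 CPM at the highest in embryos, against at most 0.233 CPM in mESC. Eif1b, at 437 to 1853 CPM in embryos, and Eif2b1, the alpha subunit of eIF2B, at 133 to 859 CPM, lay above 20.8 to 36.0 CPM and 53.9 to 54.4 CPM in mESC. Eif4e, Eif4e3 and Eif4enif1, the last a carrier of eIF4E known from stored mRNA particles, were the other 3 that stood higher in embryos. Of 14 eIF3 subunits, 12 were lower in embryos and none higher. Eif3b, a core subunit, ran from 4.67 to 21.3 CPM in embryos, against 500 to 606 CPM in mESC, and Eif3a from 8.53 to 71.6 CPM, against 605 to 725 CPM. All 5 helicases and cofactors and all 3 scaffolds were lower in embryos, Eif4g1 at 12.7 to 85.2 CPM against 795 to 852 CPM. Eif4ebp1 ran from 0.987 to 16.8 CPM in embryos, against 314 to 488 CPM in mESC.

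**Figure D4:**
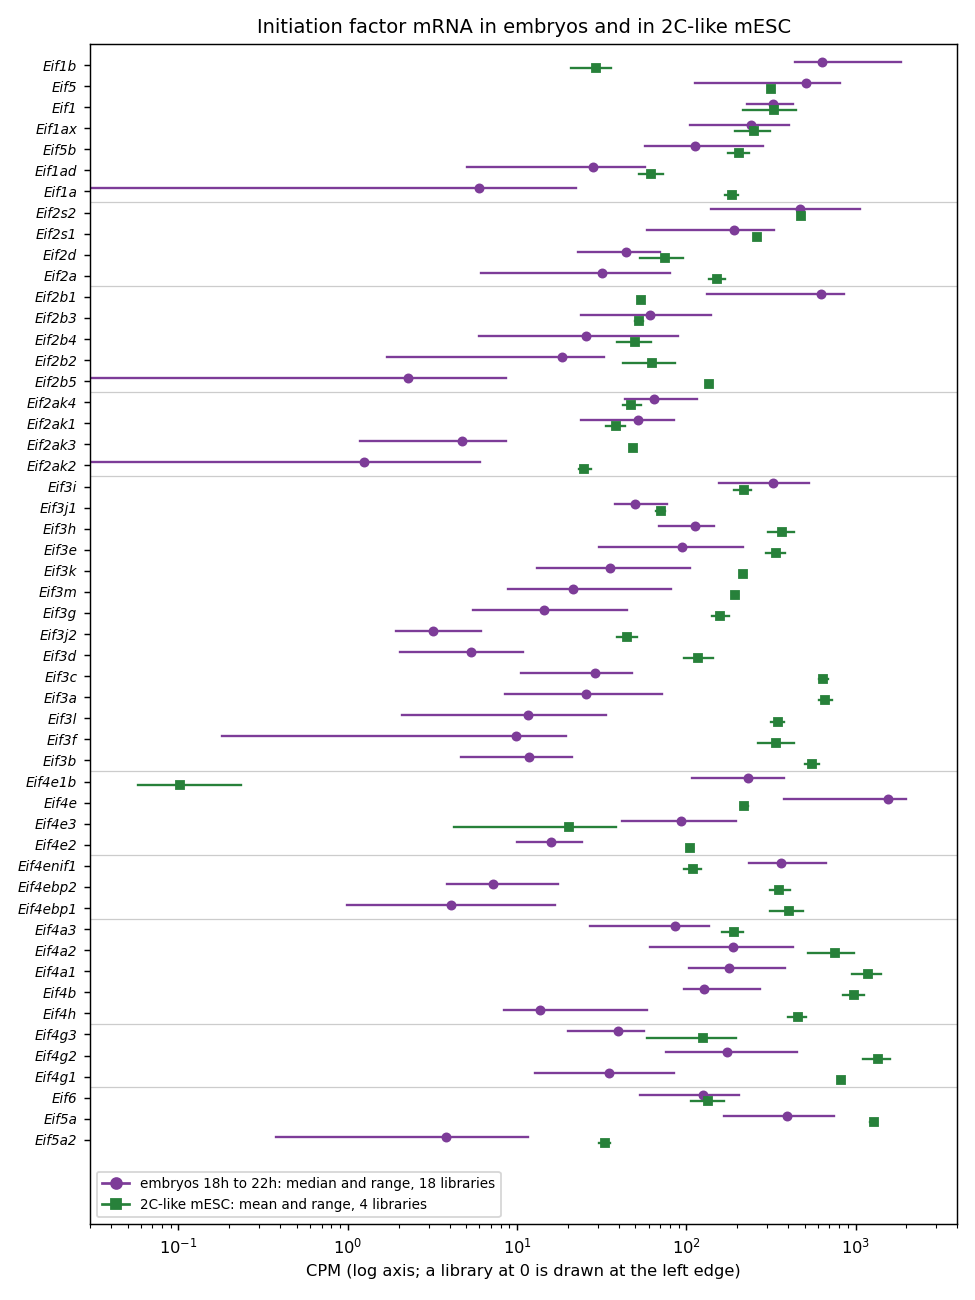
Level in CPM (log axis) of 52 members, by role, as median and range over 18 embryo libraries of 18h to 22h (purple) and mean and range over 4 mESC libraries (green). Eif4e1b is the member farthest to the embryo side and Eif3b lies among those farthest to the mESC side.

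By Spearman correlation over the 18 embryo libraries, among 7626 genes of at least 10 CPM on average, the genes most like Eif4e1b were Borcs8, 1700030K09Rik, Cdca5, Gpr180 and Fam118b, with rho of 0.917 to 0.899. Those most like Eif1a, itself at a mean of 6.503 CPM, were Baz1b, Helq, Ube4b, Wwc2 and Ddit4l, with rho of 0.903 to 0.850. The 18 libraries come from 3 times and differ in depth, so these values describe and do not test. Eif1a was also near the floor, with 0 counts in 20h KO library 3 and in 20h control library 2.

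On chromatin at 24h, H3K4me3, a mark of active promoters, had a peak within 1 kb of the start of 51 of 53 members, or 96.2%, against 70.2% of 20021 protein-coding genes. The 2 without were Eif4g1 and Eif3j2. Each table has 1 column per condition, so there is no test, and in the H3K4me3 and H3K27me3 tables the columns carry initials that were read as KO and control from the table's title and ratio. No member passed 2-fold, as 0.0% of 14058 genes did upward and 0.0285% downward. The log2 ratio of KO over control, in RPM (reads in the peaks scaled to each condition's total reads), ran from -0.41 to 0.28 over the members, with a median of -0.12, against -0.13 over all genes with a peak. Summed over peaks and not scaled to their width, Eif4ebp1 had the highest RPM of the members, at 44.5 in KO and 52.0 in control embryos. Its peak was 2263 bp wide, against a median of 1456 bp for the members. Eif4e1b had one of the lowest sums, at 2.76 RPM in KO and 3.45 RPM in control embryos, over 889 bp. The 4 log2 ratios largest in size, whatever their sign, were all lower in KO: at Eif2ak2, with 9.41 RPM in KO and 12.5 RPM in control, Eif3f, with 9.31 and 12.3 RPM, Eif5a, with 24.0 and 30.8 RPM, and Eif1, with 19.6 and 25.1 RPM in KO and control embryos.

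**Figure D5:**
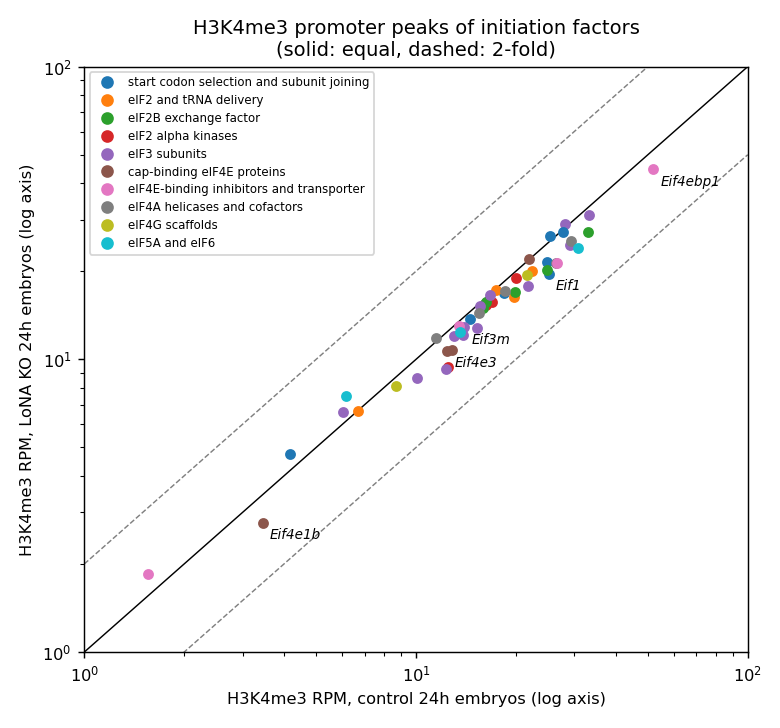
H3K4me3 in RPM in promoter peaks (log axes) of the 51 members with a peak, LoNA KO (y axis) against control (x axis) 24h embryos, coloured by role. All 51 points lie between the dashed 2-fold lines, from Eif4ebp3 at 1.85 RPM in KO and 1.56 RPM in control to Eif4ebp1 at 44.5 and 52.0 RPM.

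The repressive mark H3K27me3, laid down by PRC2, had a promoter peak at 2 members, or 3.77%, against 15.8% of protein-coding genes. At Eif4e3 its 2 peaks on chromosome 6 (mm10, 99665997 to 99666696 and 99666941 to 99667469, on both sides of the start) held 435 reads in KO and 389 in control embryos, or 8.67 RPM in KO and 8.23 RPM in control embryos. The same promoter carried H3K4me3 at 10.7 RPM in KO and 12.4 RPM in control embryos. At Eif2ak4 H3K27me3 was weak, at 1.36 RPM in KO and 1.63 RPM in control embryos. H3K27me3 promoter peaks passed 2-fold in 0.0316% of 3163 genes in either direction, and at neither member. Eif4e3 was also the 1 member with an AcNPM1 promoter peak in the KO and control table, 1.89% of members against 14.0% of protein-coding genes, at 11.8 RPM in KO and 11.6 RPM in control embryos. The table with the p300 inhibitor had peaks at 3 members, 5.66% against 16.4% of protein-coding genes. AcNPM1 at Eif4e3 was 11.3 RPM in inhibitor-treated KO and 11.1 RPM in KO embryos, at Eif2ak4 2.72 and 2.65 RPM, and at Eif5a2 3.44 and 4.88 RPM, a log2 ratio of -0.50. None passed 2-fold, where 0.178% of 2802 genes were past it upward and 0.0357% downward in KO over control, and 0.0% of 3292 upward and 0.243% downward with the inhibitor.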

How the data were processed

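The authors deposited raw read counts per gene for the RNA libraries, with mm10 positions, and each deposited RNA table also gives their mean signal per gene and their fold change, as a ratio or, at 24h, a log2 value, none of which is used for results here. Per the submitters' processing notes the RNA tools were Bowtie2 2.2.3, HISAT2 2.1.0 and HTSeq 0.6.0, with roles not given in the sources used here, and those for chromatin bcl2fastq 2.2, Bowtie2 2.1.0 and MACS2 2.1.1. The deposited peak tables hold counts per peak and condition, the authors' RPM, their log2 ratio and each condition's total reads, an other quantity. The members' deposited means were recomputed from the counts, and 0 members differed by over 0.02 on the log2 scale.

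Columns were put in groups by table and prefix. They carry no replicate number of the labels, which list 51 samples, and library numbers here only name columns. At 18h, 20h and 22h the labels list 4 replicates a group, but the tables hold 3 columns. For mESC the labels list 3 replicates a group and the table holds 2 columns, so some labelled replicates have no column. At 24h the labels list 4 replicates a group, whose columns were summed to 2 libraries. The labels do not say whether replicates are separate pools of embryos or separate mESC cultures, and p-values then cover only the spread among these libraries, which may be technical. Counts were fitted over all genes with edgeR 4.0.16 in R 4.3.3 (TMM, filterByExpr, quasi-likelihood test, Benjamini-Hochberg adjusted p under 0.05), for each table, and over the 18 libraries of 18h to 22h for the time tests and their CPM. Alternatives were DESeq2 1.42.0, RLE factors, no filter, a threshold of 0.01 and each library of a comparison left out. Further alternatives were 1 fit over 18h to 22h and the 8 columns of 24h kept apart. For chromatin they were 1.5-fold, a window of 3 kb and at least 20 reads. Read counting in peaks has 1 column a condition.

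The fit was tested on simulated data. The members and the gene lists, 6 around translation and 8 of markers, were chosen with earlier results of these data known. Values are given for the 4 members of lowest p in each embryo comparison, the 6 largest passing rises and falls in mESC and over time, chosen key factors, and on chromatin the 4 largest ratios. Deposited counts are per gene with no length used, so levels are not compared between genes. Strand use in counting is not given in the sources used here.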

Additional observations from a re-analysis of the deposited data

How the results depend on the processing

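No paired analysis was possible because the columns carry no replicate number of the labels. With DESeq2 the members called were 1 at 18h, 4 at 24h, 6 between 18h and 22h in control (5 higher and 1 lower) and 10 in KO embryos (4 higher and 6 lower), beside 0.357%, 9.58%, 4.45% and 8.02% of all genes, and with the 24h columns kept apart 3 at 24h. At a threshold of 0.01 they were 1 in control and 0 in KO embryos between 18h and 22h. Leaving out each 18h and 22h library of the genotype in turn gave 0 to 2 members over time in control and 0 to 5 in KO embryos. Leaving out each library of the comparison gave 33 to 36 in mESC and 0 in the genotype comparisons of the embryos. Eif1ad at 24h reversed, to 2.67 on the log2 scale without control library 2, its range without each library being -12.12 to 2.67; fewer samples were fitted. The other alternatives, the chromatin ones included, left each count of members within 1.5 times. Counts over all genes did move: at 1.5-fold in place of 2-fold, 15 genes were higher and 116 lower for H3K4me3, in place of 0 and 4, 68 and 17 for H3K27me3, in place of 1 and 1, 201 and 23 for AcNPM1, in place of 5 and 1, and 47 and 106 with the inhibitor, in place of 0 and 8. With each mESC group taken as 1 library no test could be made. The cause of the differences between tools was not tested.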
